A study of Zea mays with 12 samples.

Results

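Embryos of the maize (Zea mays) inbred line Mo17 were compared with embryos of the inbred line B73 after imbibition at 10 °C, in 3 libraries of each line. Both lines are widely used parents of maize hybrids, and the labels call Mo17 sensitive and B73 resistant to low temperature. All 6 libraries came from seeds in the germination period, imbibed in germination paper at 10 °C and sampled at 2 h. They are 6 of the 12 libraries of the study, and the other 6, taken here for comparison, are embryos of Mo17 and B73 treated alike at 25 °C, which the labels call normal. The 3 libraries of a group are labelled as biological replicates. Each line is 1 inbred genotype, so a difference between Mo17 and B73 cannot be told apart from a difference between the seed lots they came from.

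The table used here gives a count and an FPKM (a fragment count scaled to transcript length and library size) for 99 genes, and other genes were not analysed here. An FPKM of 1 or more in 3 or more of the 12 libraries was required for testing, which 76 of the 99 genes met and 23 did not. The 99 genes together held 981557 to 1204165 counts in a Mo17 library at 10 °C, against 722685 to 752281 counts in a B73 library at 10 °C. Relative depth was 0.956 to 1.03 in Mo17 and 1.05 to 1.08 in B73. Agpsemzm, the embryo small subunit of ADP-glucose pyrophosphorylase and the one gene taken here as an embryo marker, had 95.6 to 132 FPKM in the 6 libraries. Of the genes taken as markers of endosperm or aleurone, ae1 was listed at 0 in all 6, as in the libraries at 25 °C. In the 6 libraries a2 reached at most 0.02 FPKM. The other entry named ae1, ae1_1, annotated as a starch branching enzyme, had 2.30 to 3.60 FPKM in Mo17 and 0.40 to 0.70 FPKM in B73. AGP2, also taken as such a marker, had 192 to 266 FPKM. Whether ae1, ae1_1 or AGP2 marks endosperm rather than embryo was not tested, and neither was carry-over of endosperm. B73 replicate 1 stood apart from its group, with a Pearson r of log2(FPKM + 1) of 0.969 and 0.974 with the other 2 B73 libraries, which correlated at 0.997 with each other. Mo17 libraries correlated at 0.990 to 0.994 among themselves and at 0.894 to 0.913 with B73 libraries, across genes, which are not independent replicates.

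A dry seed that takes up water restarts respiration within hours, before the embryo has rebuilt its mitochondria. Oxygen enters the wet seed slowly, so glycolysis and ethanol fermentation supply part of the ATP, with alcohol dehydrogenase returning NADH to NAD+. Cold slows water uptake, membrane repair and enzyme reactions, and maize lines differ in how well they germinate under it.

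Of the 76 genes, 49 differed between Mo17 and B73 at 10 °C at an adjusted p under 0.05 (edgeR quasi-likelihood test, Benjamini-Hochberg adjustment over the 76 genes), or 64.5%. They were 28 genes higher in Mo17 (36.8%) and 21 genes lower in Mo17 (27.6%), with adjusted p from 4.71e-07 to 0.0407. The 3 Mo17 libraries lay entirely above or below the 3 B73 libraries for 46 genes (60.5%), 45 of them among the 49. Called with a difference of at least 2-fold were 22 of the 76 genes (28.9%), 16 higher and 6 lower in Mo17. When each of the 6 libraries was left out in turn, 34 of the 76 genes (44.7%) passed in every fit, 25 higher and 9 lower. The split of higher and lower calls depended on the scaling. With TMM factors 22 genes were called higher and 32 lower, and the median log2 difference of the 76 genes was -0.26, against 0.06 with depth scaling and -0.07 with median-ratio factors, which gave 25 and 23. Called lower with TMM factors and not called with depth scaling were 11 genes: ARF16, apx2, arf1, aprl2, aprl3, aprl9, afd1, als1, abc1, AI901738 and AI920398. Of these, als1 and AI920398 were also called with median-ratio factors. Genes given below as not passing are so with depth scaling. In these bulk samples, fewer cells of a type and less RNA per cell cannot be told apart.

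Both alcohol dehydrogenase genes were higher in Mo17. adh1, the main alcohol dehydrogenase of maize under low oxygen, had 880.4, 1768 and 1215 FPKM in Mo17 embryos, against 234, 267 and 270.1 FPKM in B73 embryos. Every Mo17 library was above every B73 library, and the spread was wider in Mo17. The log2 difference was 2.32 ± 0.22 (SE; edgeR adjusted p = 5.46e-06), a 5.01-fold higher level in Mo17. Ranked by mean FPKM among the 99 genes, adh1 was number 2 in Mo17 and number 4 in B73. adh2, the second alcohol dehydrogenase, had 15.7, 41.9 and 44.3 FPKM in Mo17 and 0.60, 0.63 and 0.30 FPKM in B73. Mo17 replicate 1 was the lowest Mo17 library for both genes, and neither gene's groups overlapped. For adh2 the log2 difference was 6.04 ± 0.77 (SE; edgeR adjusted p = 4.34e-05). The summed FPKM of the pair was 5.13 times as high in Mo17 as in B73, and adh1 made up 96.5% to 98.2% of it in Mo17 and 99.7% to 99.9% in B73. In B73 RefGen_v4 coordinates, adh1 spans 278821306 to 278824958 on the minus strand of chromosome 1, and adh2 spans 14333228 to 14336526 on the plus strand of chromosome 4.

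The aldehyde dehydrogenases, which oxidise acetaldehyde and other aldehydes to acids, differed in both directions. aldh2, annotated as the mitochondrial enzyme RF2B, had 12.8, 17.5 and 18.7 FPKM in Mo17 and 66.6, 99.2 and 70.3 FPKM in B73. It was 4.83-fold lower in Mo17 with no overlap, at a log2 difference of -2.27 ± 0.20 (SE; edgeR adjusted p = 3.87e-06). The much scarcer aldh5 had 0.93, 1.9 and 1.65 FPKM in Mo17, against 0.50, 0.22 and 0.25 FPKM in B73, and was higher in Mo17 at 2.19 ± 0.41 (SE; edgeR adjusted p = 0.000669). Together the pair had 13.7 to 20.4 FPKM in Mo17 and 67.1 to 99.4 FPKM in B73. AMADH2, an aminoaldehyde dehydrogenase by its symbol, had 12.8 to 14.9 FPKM in Mo17 and 13.2 to 14.3 FPKM in B73 and did not pass (log2 difference 0.05 ± 0.12, SE), and its sign turned under both other scalings. ald1, a cytoplasmic fructose-bisphosphate aldolase of glycolysis, had 234, 237 and 298 FPKM in Mo17 and 118, 146 and 92.9 FPKM in B73. All Mo17 libraries were above all B73 libraries for ald1, at 1.11 ± 0.22 (SE; edgeR adjusted p = 0.00117). Of the 6 tested genes of fermentation and glycolysis, 4 were thus called higher in Mo17 and 1 lower, beside 36.8% and 27.6% of all 76 genes. Their median log2 difference was 1.65, beside 0.06 over all 76 genes.

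**Figure D1:**
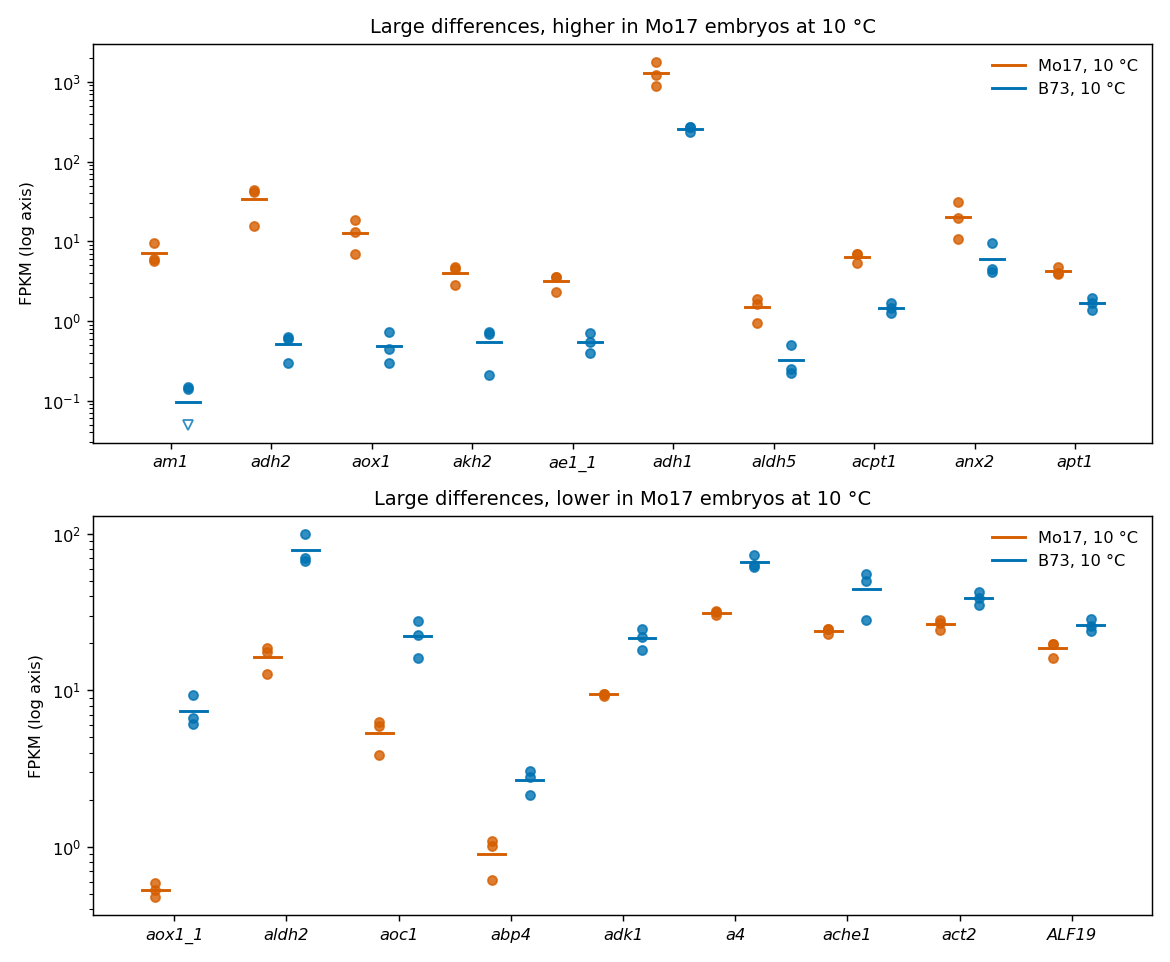
FPKM in each library at 10 °C (log axis) for 10 genes higher and 9 genes lower in Mo17, large differences past the threshold whose groups did not overlap, Mo17 left of B73. Points are libraries, bars are means of 3, and the open triangle marks a library listed at 0; in no gene do the points of Mo17 and B73 overlap.

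The alternative oxidases are mitochondrial enzymes that pass electrons from ubiquinol straight to oxygen, by a route that bypasses the proton-pumping complexes of the cytochrome pathway. Embryos of the 2 lines carried mostly different members. aox1 had 13.2, 6.97 and 18.4 FPKM in Mo17, against 0.30, 0.45 and 0.72 FPKM in B73. aox1_1 had 0.59, 0.48 and 0.53 FPKM in Mo17, against 9.38, 6.67 and 6.09 FPKM in B73. The groups did not overlap for either gene, with log2 differences of 4.70 ± 0.69 for aox1 and -3.78 ± 0.26 for aox1_1 (SE; edgeR adjusted p = 0.000116 and 4.71e-07). aox3 was not tested, with at most 0.22 FPKM in Mo17 and 0 in all B73 libraries. aox1 made up 92.6% to 97.2% of the summed FPKM of the 3 genes in Mo17 and 3.10% to 10.6% in B73. The sum itself overlapped between the lines, at 14.0, 7.53 and 18.9 FPKM in Mo17 and 9.68, 7.12 and 6.81 FPKM in B73 (exact permutation test on log2 sums, 2-sided p = 0.2, where 3 libraries against 3 cannot go below 0.1). The genes are on different chromosomes, aox1 at 12637892 to 12640564 on the plus strand of chromosome 2 and aox1_1 at 205304124 to 205306744 on the minus strand of chromosome 5. The processing notes name a B73 genome build for libraries of both lines, and how reads shared by similar genes were assigned is not stated there. The part of this in differences between family members was not tested. Nor was the effect of a B73 build on the Mo17 values of any other gene, whether higher or lower in Mo17.

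The ADP/ATP carriers exchange ATP made in mitochondria for cytosolic ADP. ANT1 had 513, 439 and 477 FPKM in Mo17, against 323, 191 and 231 FPKM in B73, and was higher in Mo17 with no overlap (log2 difference 0.94 ± 0.16, SE; edgeR adjusted p = 0.000431). ANT2 had 172 to 195 FPKM in Mo17, within the 134 to 214 FPKM of B73, and did not pass (0.08 ± 0.15, SE). adk1, an adenylate kinase, which interconverts ATP, ADP and AMP, had 9.53, 9.47 and 9.26 FPKM in Mo17 and 18.1, 24.8 and 21.8 FPKM in B73. It was lower in every Mo17 library (-1.19 ± 0.14, SE; edgeR adjusted p = 2.31e-05). akin1, annotated as a subunit of the SnRK1 kinase that responds to energy shortage, had 33.2 to 38.0 FPKM in Mo17 and 27.1 to 29.8 FPKM in B73. It was called higher (0.31 ± 0.08, SE; edgeR adjusted p = 0.00754), but the call was lost and the sign turned with TMM factors (-0.02), and the call was also lost with median-ratio factors (edgeR adjusted p = 0.0925). Over the 4 tested oxidases and carriers the median log2 difference was 0.51, beside 0.06 over all 76 genes. Of these 4, 2 were called higher and 1 lower, where 36.8% and 27.6% of all 76 genes were called higher and lower.

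Both the highest gene of the table and several storage and starch genes differed. AR3, annotated through its enzyme class as an NADP-dependent alcohol dehydrogenase and otherwise uncharacterised in the table, had 3521, 4129 and 4101 FPKM in Mo17 and 2171, 1878 and 1945 FPKM in B73. It was higher in every Mo17 library (log2 difference 0.97 ± 0.14, SE; edgeR adjusted p = 9.07e-05) and took 38.5% to 40.3% of the summed FPKM of the 99 genes in Mo17 and 32.6% to 34.6% in B73. AGA1, an alkaline alpha galactosidase, an enzyme type that splits raffinose sugars stored in seeds, had 498, 558 and 489 FPKM in Mo17, against 229.6, 265 and 238 FPKM in B73. Its groups did not overlap, at 1.08 ± 0.11 (SE; edgeR adjusted p = 1.01e-05). apx2, an ascorbate peroxidase that removes hydrogen peroxide, had 45.8 to 49.5 FPKM in Mo17 and 40.7 to 49.5 FPKM in B73 and did not pass (0.07 ± 0.09, SE).

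ae1_1, annotated as a starch branching enzyme, had 3.58, 3.60 and 2.30 FPKM in Mo17, against 0.55, 0.40 and 0.70 FPKM in B73. Its log2 difference was 2.51 ± 0.30 (SE; edgeR adjusted p = 2.42e-05), with no overlap. ADP-glucose pyrophosphorylase makes the sugar donor of starch synthesis from large and small subunits, and its genes did not move as one. The large subunit AGPLS3 had 23.3, 23.2 and 23.7 FPKM in Mo17 and 15.2, 12.2 and 13.3 FPKM in B73 (0.79 ± 0.11, SE; edgeR adjusted p = 9.84e-05), higher in every Mo17 library. AGP2, of the same annotated activity, had 211 to 266 FPKM in Mo17, overlapping the 192 to 248 FPKM of B73 (0.20 ± 0.14, SE, not called). The small subunit Agpsemzm had 101, 102 and 95.6 FPKM in Mo17 and 130.04, 132 and 128 FPKM in B73, lower in every Mo17 library (-0.39 ± 0.08, SE; edgeR adjusted p = 0.0013). amyb5, a beta-amylase, had 0.45, 1.02 and 0.87 FPKM in Mo17, overlapping 0.49, 0.26 and 0.13 FPKM in B73. It was called higher at 1.39 ± 0.46 (SE; edgeR adjusted p = 0.0225), a call lost with TMM factors and without B73 replicate 2 or 3 or Mo17 replicate 2 or 3 (edgeR adjusted p = 0.0596 to 0.0736), while without B73 replicate 1 the difference was 1.98. Of the 5 tested starch genes, 3 were called higher and 1 lower (36.8% and 27.6% of all 76 genes were), with a median log2 difference of 0.79 beside 0.06 over all 76 genes.

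**Figure D2:**
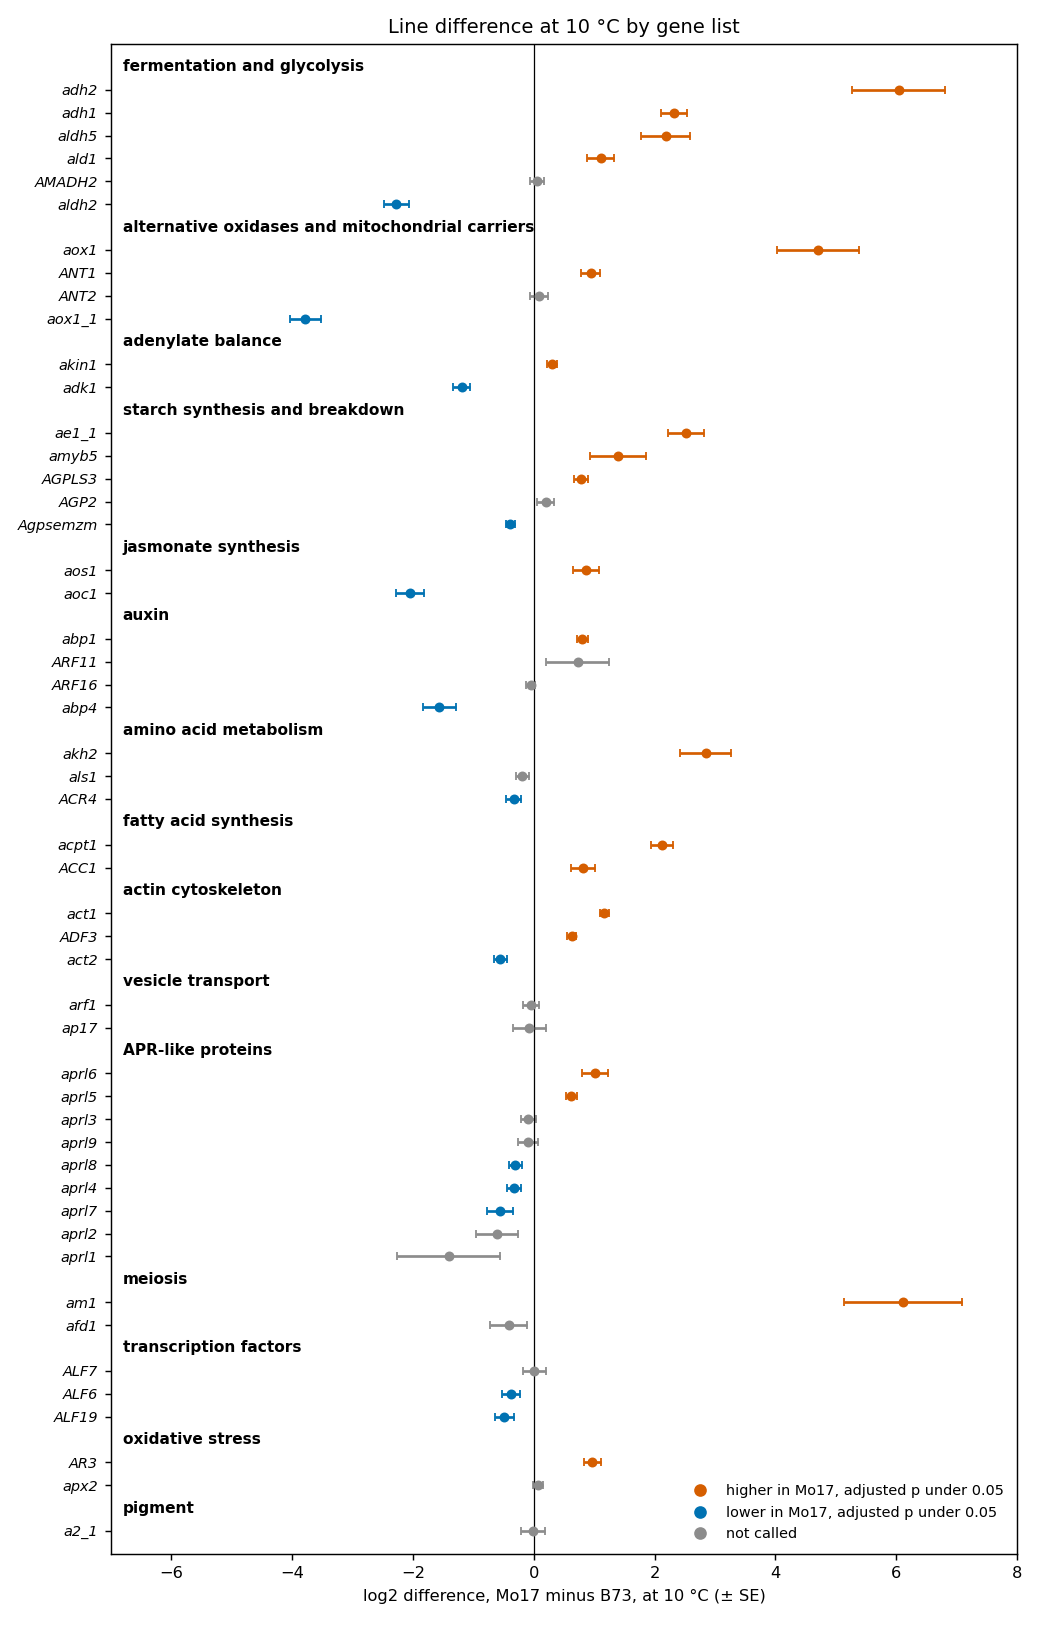
Log2 difference of Mo17 minus B73 at 10 °C for tested members of the gene lists, with its standard error, coloured by call at an adjusted p of 0.05 (orange higher in Mo17, blue lower, grey not called). The alternative oxidases aox1 and aox1_1 stand at 4.70 and -3.78, and adh2 and am1 are the farthest to the right, at 6.04 and 6.11.

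In jasmonate synthesis, allene oxide synthase and allene oxide cyclase act one after the other. The gene for the first step, aos1, had 466, 496 and 560.0 FPKM in Mo17, against 393, 215 and 229.8 FPKM in B73, higher in every Mo17 library (log2 difference 0.86 ± 0.21, SE; edgeR adjusted p = 0.0048). With TMM factors aos1 just missed the threshold (edgeR adjusted p = 0.0527). For the second step, aoc1 had 5.95, 3.89 and 6.28 FPKM in Mo17 and 16.1, 27.9 and 22.7 FPKM in B73, 4.13-fold lower in Mo17 with no overlap (-2.05 ± 0.24, SE; edgeR adjusted p = 2.31e-05). Of the auxin-binding proteins, abp1 had 132, 113 and 139 FPKM in Mo17, against 75.9, 72.4 and 71.8 FPKM in B73 (0.80 ± 0.09, SE; edgeR adjusted p = 2.42e-05). abp4 had 1.01, 0.61 and 1.09 FPKM in Mo17, against 2.15, 3.07 and 2.78 FPKM in B73 (-1.56 ± 0.27, SE; edgeR adjusted p = 0.000395). Neither gene's groups overlapped, abp1 being the higher and abp4 the lower in Mo17. ARF16, an auxin response factor, had 253 to 282 FPKM in Mo17 and 255 to 295 FPKM in B73 and did not pass (-0.05 ± 0.08, SE). With TMM factors ARF16 was called lower in Mo17, at -0.38 (edgeR adjusted p = 0.00192). Of the 4 tested auxin genes, 1 was called higher and 1 lower, beside 36.8% and 27.6% of all 76 genes. ARF11 was not called with all libraries but was called higher without B73 replicate 1 (edgeR adjusted p = 3.5e-06).

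Fatty acid synthesis was represented by 2 tested genes, both called higher in Mo17, as were 36.8% of all 76 genes. Their median log2 difference was 1.47, beside 0.06 over all 76. acpt1, annotated as an acyl carrier protein, which holds the growing fatty acid chain, had 5.32, 6.87 and 6.94 FPKM in Mo17 and 1.70, 1.44 and 1.24 FPKM in B73. It was higher in every Mo17 library at a log2 difference of 2.13 ± 0.19 (SE; edgeR adjusted p = 3.76e-06). ACC1, an acetyl-CoA carboxylase, which makes the malonyl-CoA for chain growth, had 62.4, 80.7 and 81.2 FPKM in Mo17, against 57.7, 30.0 and 39.6 FPKM in B73 (0.82 ± 0.20, SE; edgeR adjusted p = 0.00489). The lowest Mo17 value of ACC1 lay just above B73 replicate 1, and its call was lost with TMM factors (edgeR adjusted p = 0.0591).

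Among genes of amino acid synthesis, akh2, a bifunctional aspartate kinase and homoserine dehydrogenase at the head of the lysine, threonine and methionine routes, had 2.83, 4.74 and 4.47 FPKM in Mo17. In B73 akh2 had 0.69, 0.21 and 0.73 FPKM, and the difference was 2.85 ± 0.42 on the log2 scale (SE; edgeR adjusted p = 0.000122). Its groups stood apart by more than their own spread. als1, an acetolactate synthase of branched-chain amino acid synthesis, had 94.5 to 101 FPKM in Mo17 and 95.1 to 127 FPKM in B73 and did not pass (-0.19 ± 0.11, SE). ACR4, whose annotation is the control of amino acid metabolism, had 120.4 to 152 FPKM in Mo17 and 153 to 193 FPKM in B73 (-0.33 ± 0.12, SE; edgeR adjusted p = 0.0363), lower in every Mo17 library. The ACR4 call was lost without B73 replicate 2 or 3 or Mo17 replicate 1 or 3 (edgeR adjusted p = 0.0732 to 0.152).

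The actin genes differed in opposite directions, and libraries of a line lay close together. act1 had 357, 311 and 333 FPKM in Mo17 and 147, 146 and 153 FPKM in B73, 2.24-fold higher in Mo17 (log2 difference 1.16 ± 0.07, SE; edgeR adjusted p = 4.71e-07). act2, annotated as actin-7, had 24.2, 26.8 and 28.2 FPKM in Mo17 and 38.9, 35.0 and 42.4 FPKM in B73, lower in Mo17 (-0.55 ± 0.11, SE; edgeR adjusted p = 0.000917). Neither gene's groups overlapped. act1 made up 92.1% to 93.7% of the summed FPKM of the pair in Mo17, against 78.3% to 80.7% in B73, and the sum was 1.92 times as high in Mo17. ADF3, an actin-depolymerising factor, had 80.1, 81.3 and 81.5 FPKM in Mo17, against 50.8, 55.8 and 50.3 FPKM in B73 (0.63 ± 0.08, SE; edgeR adjusted p = 3.12e-05), higher in every Mo17 library. The median log2 difference of these 3 genes was 0.63. The vesicle transport genes arf1, an ADP-ribosylation factor, and ap17, the small subunit of a clathrin adaptor, did not pass, at -0.04 ± 0.13 and -0.07 ± 0.27 (SE).

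**Figure D3:**
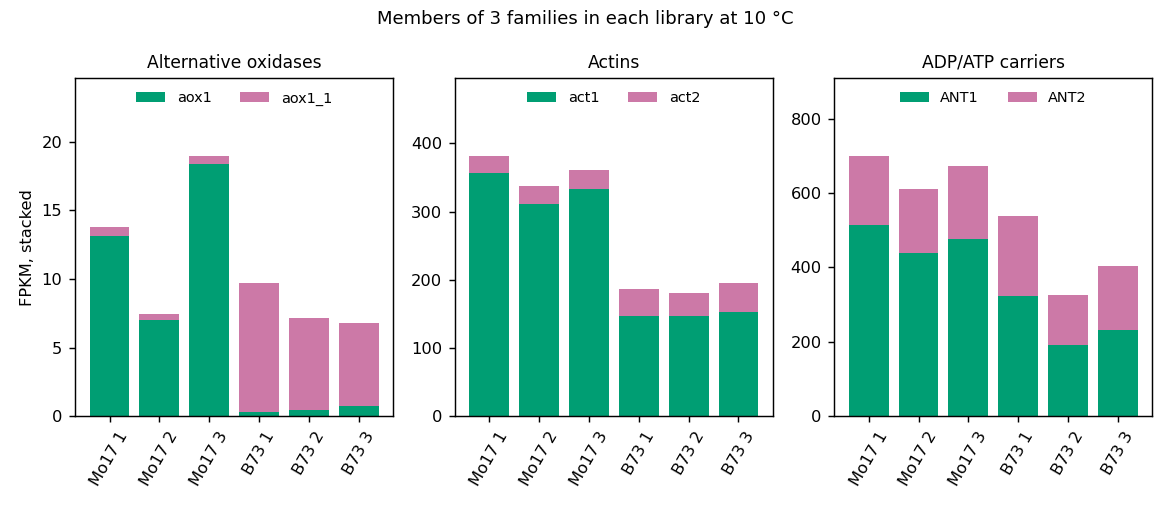
Stacked FPKM of the members of 3 gene families in each of the 6 libraries at 10 °C, the 3 Mo17 libraries left of the 3 B73 libraries. Mo17 bars of the alternative oxidases are nearly all aox1 and B73 bars nearly all aox1_1, act1 makes up at least 92.1% of the actin bars in Mo17, and the summed alternative oxidases overlap between the lines.

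The 9 proteins like adenosine phosphosulfate reductase, named aprl1 to aprl9, are a mixed group, since aprl1 and aprl2 are annotated to sulfate assimilation and the other 7 to protein disulfide isomerase activity in the endoplasmic reticulum. Of the 9, 2 were called higher, 3 lower and 4 not called, beside 36.8% and 27.6% of all 76 genes called higher and lower. Their median log2 difference was -0.30, beside 0.06 over all 76 genes. That median depended on B73 replicate 1, without which aprl1 moved from -1.40 to 1.20 and aprl2 from -0.61 to -0.02. aprl6 had 2.17, 2.37 and 2.53 FPKM in Mo17 and 0.93, 1.35 and 1.20 FPKM in B73 (1.02 ± 0.21, SE; edgeR adjusted p = 0.00152), with no overlap. aprl5 had 22.5 to 25.4 FPKM in Mo17 and 14.4 to 16.5 FPKM in B73 (0.62 ± 0.09, SE; edgeR adjusted p = 9.84e-05), also with no overlap. The lower members, aprl4, aprl7 and aprl8, were 1.23-fold to 1.47-fold apart, and aprl7 overlapped between the lines. Each of these 3 lost its call without B73 replicate 2 or 3 or Mo17 replicate 1 or 3, and aprl7 also without Mo17 replicate 2 (edgeR adjusted p = 0.0566 to 0.152). aprl3 and aprl9 did not pass, at -0.09 ± 0.12 and -0.09 ± 0.16 (SE).

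am1 and adh2 had the largest differences of the 76 genes, and their order depended on the processing. am1 encodes a DYAD-type protein known as a switch into meiosis, and had 9.38, 6.04 and 5.67 FPKM in Mo17, against 0, 0.15 and 0.14 FPKM in B73. The log2 difference was 6.11 ± 0.97 (SE; edgeR adjusted p = 0.000229), and its size rests on B73 values near 0, at 2.85 with limma on log2(FPKM + 1), where adh2 stood at 4.41. adh2 was also the larger without B73 replicate 1, at 6.15 for adh2 and 5.54 for am1, and without Mo17 replicate 1, at 6.38 for adh2 and 5.85 for am1. afd1, a cohesin subunit of meiosis, had 2.70 to 3.54 FPKM in Mo17 and 3.28 to 5.60 FPKM in B73, with overlap, and did not pass (-0.42 ± 0.31, SE). Of the Alfin-like PHD finger proteins, ALF19 had 19.7, 19.9 and 16.1 FPKM in Mo17, against 28.6, 23.96 and 25.7 FPKM in B73 (-0.49 ± 0.16, SE; edgeR adjusted p = 0.0204). ALF19 was lower in every Mo17 library, and its call was lost without Mo17 replicate 3 (edgeR adjusted p = 0.0758). ALF6 was called lower at -0.38 ± 0.15 (SE; edgeR adjusted p = 0.0407), a call lost without B73 replicate 2 or 3 or Mo17 replicate 1 or 3 (edgeR adjusted p = 0.0516 to 0.175). ALF7 did not pass, at 0.01 ± 0.19 (SE), and the median of these 3 genes was -0.38. Of the entries listed under pigment by their symbol, only a2_1 was tested. It did not pass, with 38.5 to 46.0 FPKM in Mo17 and 41.6 to 44.5 FPKM in B73. The annotation of a2_1 is glycosyltransferase activity, and a role in pigment was not tested.

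Outside these lists, anx2, an annexin, a protein that binds membrane lipids with calcium, had 10.6, 30.6 and 19.6 FPKM in Mo17, against 9.40, 4.44 and 4.14 FPKM in B73. Its Mo17 libraries varied widely and the lowest lay just above B73 replicate 1, and the difference was 1.76 ± 0.42 on the log2 scale (SE; edgeR adjusted p = 0.00416). apt1, the maize aberrant pollen transmission gene, had 3.87, 4.73 and 3.99 FPKM in Mo17 and 1.92, 1.67 and 1.38 FPKM in B73 (1.34 ± 0.23, SE; edgeR adjusted p = 0.000419). AI714808, annotated as a protein phosphatase methylesterase, had 166, 152 and 151 FPKM in Mo17, against 59.2, 72.6 and 71.0 FPKM in B73 (1.21 ± 0.08, SE; edgeR adjusted p = 4.71e-07). Every Mo17 library was above every B73 library for both genes. a4, annotated as a glycosyltransferase, had 30.1, 32.2 and 31.8 FPKM in Mo17 and 61.3, 73.4 and 62.9 FPKM in B73, 2.10-fold lower in Mo17 (-1.07 ± 0.11, SE; edgeR adjusted p = 1.33e-05). ache1, annotated with cholinesterase activity, had 24.7, 24.5 and 23.0 FPKM in Mo17 and 28.3, 55.6 and 50.1 FPKM in B73 (-0.89 ± 0.23, SE; edgeR adjusted p = 0.00526). Both were lower in every Mo17 library, and ache1 had 1 low library in B73, replicate 1.

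Other called genes outside the lists differed by less than 2-fold. aap1, an acylaminoacyl peptidase, AI665421 and AN110, a zinc finger protein of AN1 type, were higher in Mo17 at 0.83 ± 0.29, 0.60 ± 0.11 and 0.59 ± 0.20 on the log2 scale (SE). The lower ones were AI676903, AI812156, an Elongator complex protein by its annotation, AI665898, a reticulon, abcf1 and AGG2, at -0.30 to -0.63. Libraries of the 2 lines overlapped for abcf1 and AGG2. Of these 8 higher or lower genes, only AI665421 passed in all 6 fits that left out a library. aap1 lost its call without B73 replicate 2 or 3 or Mo17 replicate 1 or 2, AN110 without B73 replicate 3 or Mo17 replicate 1 or 3, and both with either other scaling. Among the lower ones, calls were lost without B73 replicate 1 for AGG2, without B73 replicate 2 for AI812156, AI665898 and abcf1, and without B73 replicate 3 for all 5. Leaving out Mo17 replicate 1 ended the calls of AI676903, AI812156 and AGG2, Mo17 replicate 2 those of AI676903, AI812156 and AI665898, and Mo17 replicate 3 those of AI812156, abcf1 and AGG2. The edgeR adjusted p of these 7 genes in those fits was 0.0502 to 0.147.

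B73 replicate 1 decided the values of several genes. It was at least 2-fold above the mean of the other 2 B73 libraries for aprl1, aprl2, ARF11, ACI13 and anx2. For am1 it was at least 2-fold below that mean. aprl1 had 4.99, 3.78 and 3.69 FPKM in Mo17, against 29.4, 1.62 and 2.00 FPKM in B73. With all libraries aprl1 did not pass at a log2 difference of -1.40 ± 0.85 (SE), and without B73 replicate 1 it was called higher in Mo17 at 1.20 (edgeR adjusted p = 0.000846), while without B73 replicate 2 it was called lower at -1.91 (edgeR adjusted p = 0.0497). ARF11, an auxin response factor, had 4.93, 4.74 and 4.74 FPKM in Mo17 and 6.30, 1.18 and 1.24 FPKM in B73. Its difference was 0.72 ± 0.52 (SE, not called) with all libraries and 1.99 without B73 replicate 1 (edgeR adjusted p = 3.5e-06). For aprl2 the difference was -0.61 with all libraries and -0.02 without B73 replicate 1, and it passed in neither fit. Without this library 53 genes were called in place of 49, with aprl1, ARF11, als1 and AI920398 among the calls gained and AGG2 lost.

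**Figure D4:**
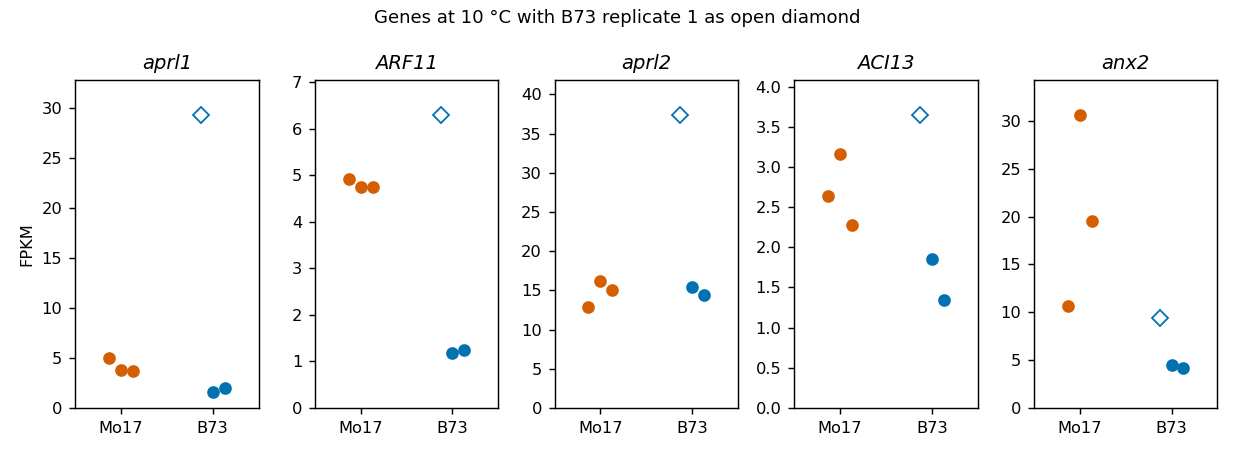
FPKM at 10 °C of 5 genes in which B73 replicate 1 (open diamond) was at least 2-fold above the mean of the other 2 B73 libraries (filled blue), with the 3 Mo17 libraries (orange) on the left of each panel. For aprl1 the diamond stands at 29.4 FPKM, against 1.62 and 2.00 FPKM in the other 2 B73 libraries.

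The comparison most like this one is that of Mo17 with B73 at 25 °C, which shares no library with it. At 25 °C 47 of the 76 genes were called (61.8%), and 43 genes were called in the same direction at both temperatures, which is 87.8% of the calls at 10 °C and 91.5% of those at 25 °C. No gene was called in opposite directions, and 67 of the 76 had the same sign. The interaction, which tests whether the line difference at 10 °C differs from that at 25 °C, gave 0 genes (0%; edgeR smallest adjusted p = 0.432), with limma and DESeq2 also at 0, and 6 genes at an unadjusted p under 0.05 (7.89%). Those 6 were aprl1, a4, abc1, a2_1, AI691686 and AR3. For aprl1 the line difference at 10 °C was -1.40 with all libraries and 1.20 without B73 replicate 1, beside 1.38 at 25 °C. For a4 the log2 difference was -1.07 ± 0.11 at 10 °C and -0.71 ± 0.11 at 25 °C (SE), and for AR3 it was 0.97 ± 0.14 and 1.39 ± 0.14 (SE). For adh2 the interaction was 1.47 ± 0.91 and for aox1 -0.75 ± 0.88 (SE), so a difference between the temperatures in either gene was not resolved beyond these errors. At 25 °C adh2 had 44.3, 6.1 and 46.9 FPKM in Mo17, so replicate 2 lowered its line difference there.

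Called at 10 °C and not at 25 °C were aap1, AGG2, aprl7, ALF6, AI665898 and AI812156. All 6 lost their call at 10 °C in at least 3 of the 6 fits that left out a library, and a difference between the temperatures was not shown for any of them by the interaction test. AI665898 had a log2 difference of -0.34 ± 0.11 at 10 °C and -0.03 ± 0.11 at 25 °C, and ALF6 -0.38 ± 0.15 and -0.06 ± 0.15 (SE). For AGG2 the values were -0.63 ± 0.24 and -0.04 ± 0.24 (SE). Called at 25 °C and not at 10 °C were als1, abc1, a2_1 and AI691686. a2_1, annotated with glycosyltransferase activity, stood at -0.0044 ± 0.20 at 10 °C and 0.68 ± 0.20 at 25 °C (SE), and AI691686 at 0.05 ± 0.14 and -0.54 ± 0.14 (SE). For a2_1 the lines overlapped at 25 °C. Its call there was lost with TMM factors, and also without B73 replicate 2 or Mo17 replicate 3 at 25 °C. At 10 °C the sign of AI691686 turned with TMM factors (-0.28) and with median-ratio factors (-0.081).

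**Figure D5:**
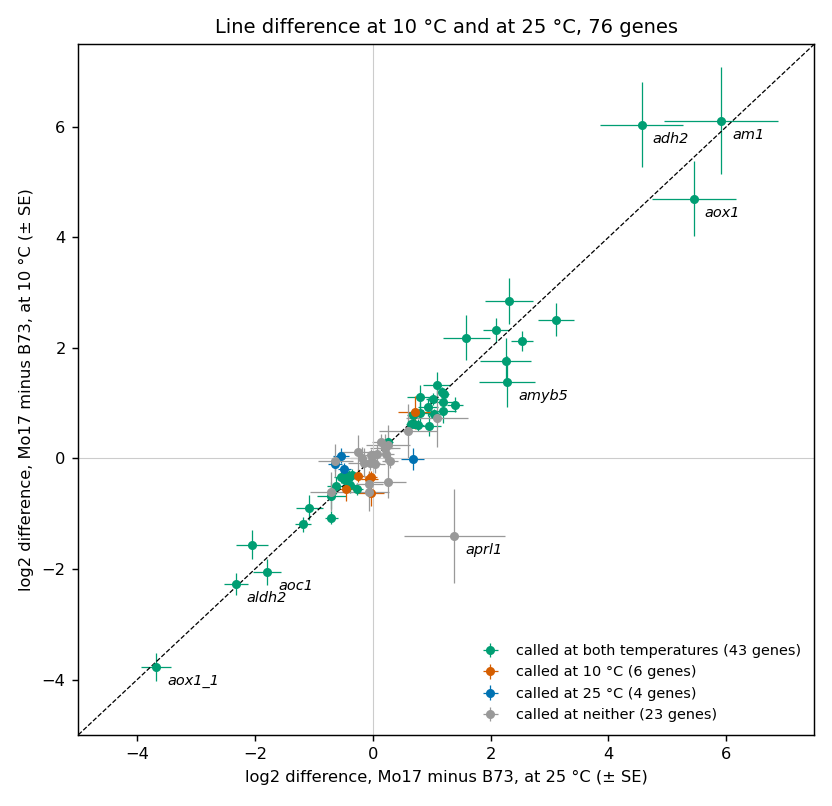
Log2 difference of Mo17 minus B73 at 10 °C (vertical axis) against that at 25 °C (horizontal axis) for the 76 tested genes, with standard errors on both axes and a dashed line of equal values. The 43 genes called at both temperatures (green) have the same sign at both, with adh2 the farthest of them from the line, and aprl1 is the farthest of all 76, at -1.40 at 10 °C and 1.38 at 25 °C. Without B73 replicate 1 the difference of aprl1 at 10 °C was 1.20. For adh2, Mo17 replicate 2 at 25 °C had 6.1 FPKM, against 44.3 and 46.9 FPKM in Mo17 replicates 1 and 3.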

How the data were processed

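RNA-seq counts and FPKM were taken from the authors' deposited table, which holds both for 99 genes in 12 embryo libraries, per the file headers. Tools named, without role or order, in the submitters' processing notes are StringTie 1.3.4d, HISAT2 2.0.4, cutadapt 1.9, DESeq2 and edgeR, and the build there is B73 RefGen_v4. Libraries were made by a dUTP method, per the labels' protocols, but use of the strand in counting is not given in any source used. The deposited counts hold no 1 or 2 and the value 4 occurs 19 times, so a fragment appears to be worth several counts, and no counting intervals are given. The FPKM the authors deposited gave relative depth, as count over FPKM (48 genes, within 0.374%). Absolute depth is unknown.

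The counts were fitted with edgeR 4.0.16 (R 4.3.3), taking relative depth as library size and 4 group means over 12 libraries. Tests were 2-sided, with Benjamini-Hochberg adjustment over the 76 genes that reached 1 FPKM in 3 or more libraries, and a threshold of 0.05. Standard errors are the log2 difference without a prior count over the square root of F. p-values measure only the spread between these replicates. Genes named are the 10 largest differences per direction without overlap and with a mean of 1 FPKM or more in the higher line, and the tested members of 16 lists; others were chosen after seeing their values. Results of 2 genes are not reported here. The members and lists were chosen with earlier results of these data known. Alternatives were DESeq2 1.42.0, limma 3.58.1 on log2(FPKM + 1) and log2(FPKM + 0.1), TMM and median-ratio factors, 2 other filters, a replicate block, the 6 libraries alone, each library left out and, added after seeing the data, counts divided by 4. The procedure was tested on simulated data. Chromosome numbers came from 91 genes matched to a RefSeq table of the later NAM-5.0 assembly, whose coordinates were not used.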

Additional observations from a re-analysis of the deposited data

How the results depend on the processing

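The count of 49 genes called at 10 °C stayed within 1.5 times of itself under all alternatives run. It was 49 with DESeq2, with limma at both pseudocounts and with counts divided by 4, the same genes each time, 54 with TMM factors, 48 with median-ratio factors, 52 without a filter and 40 both with a stricter filter (58 genes tested) and in the fit of the 6 libraries alone, which lost ACR4, AGG2, AI676903, AI812156, ALF6, abcf1, amyb5, aprl4 and aprl7. Leaving out 1 library gave 35 to 53, and 31 genes were called under every alternative that tested them. No pairing of the lines by replicate number was seen. Same-numbered Mo17 and B73 libraries at 10 °C had deviations from their group means that correlated at -0.001, -0.108 and 0.039, and not every library correlated best with its own number. With 3 libraries in a group, these values cannot decide whether replicate numbers paired the lines. With the replicate block 43 genes were called at 10 °C, 46 at 25 °C and 0 for the interaction, and those not called at 10 °C under it were ACR4, AGG2, AI812156, ALF6, amyb5 and aprl7. Of the 76 genes, 12 turned sign with TMM factors and 7 with median-ratio factors. Among the 65 named by the rule, 6 turned with TMM factors, to -0.12 for AGP2, -0.31 for ALF7, -0.27 for AMADH2, -0.25 for ANT2, -0.022 for akin1 and -0.25 for apx2. With median-ratio factors ALF7 (-0.13), AMADH2 (-0.079), ANT2 (-0.044) and apx2 (-0.063) turned. The cause was not tested. Over the fits that left out 1 library, the log2 difference ran from -0.21 to 0.21 for ALF7, -0.075 to 0.26 for ANT2, -0.059 to 0.065 for a2_1, -0.19 to 0.026 for ap17, -1.91 to 1.20 for aprl1, -0.18 to 0.0048 for aprl3, -0.16 to 0.01 for aprl9 and -0.11 to 0.042 for arf1. Of the values of these 65 genes under the alternatives, 915 kept direction and call, 80 lost the call, 11 gained one and 23 turned sign. Genes under about 1 FPKM rest on few fragments, and their absolute depth is unknown.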

Other observations

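The 23 genes below the filter held low values that belong to no test above. The 4 genes of abscisic acid and ethylene synthesis in the table, aba1, acco20, ACO31 and acs7, were all among them, and so were 3 of the 4 NAC transcription factors of the table. ACO31, annotated as an ACC oxidase of ethylene synthesis, had 0.60, 0.18 and 0.32 FPKM in Mo17 and 0.06, 0 and 0.01 FPKM in B73. an2, a copalyl diphosphate synthase, had 0.47, 0.80 and 0.43 FPKM in Mo17, against 0.04, 0.11 and 0.13 FPKM in B73. Enzymes of this type stand at the entry to gibberellins and related defence compounds. The related gene an1 had 0.55 to 0.93 FPKM in Mo17 and 0.61 to 0.91 FPKM in B73. Without a filter ACO31, an2 and AGAMOUS were called higher in Mo17 (edgeR adjusted p = 0.0159, 0.00228 and 0.0438). AGAMOUS had 0.26, 0.32 and 0 FPKM in Mo17 and was listed at 0 in all B73 libraries, so its Mo17 libraries did not all stand above B73. ANAC044, a NAC factor annotated to the DNA damage checkpoint, had 0.56, 0.95 and 1.97 FPKM in Mo17, against 0.28, 0.21 and 0.05 FPKM in B73, with no overlap and no call in that fit. aic1, an auxin import carrier, had 0, 0.29 and 0 FPKM in Mo17, against 1.15, 0.59 and 0.45 FPKM in B73, also with no overlap and no call in that fit. aprt1, an adenine phosphoribosyltransferase, had 0, 0 and 0.20 FPKM in Mo17 and 0.53, 0.19 and 0.27 FPKM in B73, with overlap. These genes were chosen after their values were seen.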
